A study of Mus musculus with 9 samples.

Results

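The 8 loci described here are Grb10, Igf2r, Inpp5f, Snrpn, Gnas, Impact, Nnat and Mest, imprinted genes taken from the 49550 genes of the gene table on the autosomes and X. They were picked on measured values, because the CpG methylation seen earlier at 1 of their gene ends lay far from 50% or varied between libraries. Those gene-end levels are therefore a description here and support nothing. CpGs were read in 1-kb tiles over each gene and 20 kb on each side. A region was taken as half-methylated where tiles had a mean level of 30 to 70% over the Control libraries. Those tiles also needed at least 15 CpGs listed in any library and at least 20 calls in every library. Each of the 8 loci held at least 1 such region, 29 in all, and the one with most CpGs is called its main region. The Control mean near the middle of the scale is thus set by the choice of region, which also limits the levels of the Control libraries together. The region rule used the Susceptible libraries only for the CpG and call minimums, not for their levels. It did not use the spread between libraries or between single CpGs.

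An imprinted gene is expressed from the copy of 1 parent. The choice is carried by a differentially methylated region, a stretch of CpGs that is methylated on the copy from 1 parent and free of methylation on the other. DNA from a tissue mixes both copies, so such a region reads near the middle of the scale even where each molecule is either methylated or not. At most such regions the mark is laid down in the germ line and is kept in all body tissues, whereas the parent-specific expression can be limited to some of them. In the brain several of these genes are expressed in neurons, and Grb10 is expressed there from the paternal copy and in most other tissues from the maternal copy.

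DNA from frozen punches of the nucleus accumbens, part of the ventral striatum, of male C57BL/6J mice aged 8 weeks was read by whole-genome bisulfite sequencing. The labels name 5 Control samples, numbered 2, 3, 4, 5 and 8, and 4 Susceptible samples, numbered 2, 3, 6 and 7. Every library carries the same treatment text, chronic social defeat by CD1 aggressor males over 10 days, and the labels do not tell what the Control mice went through or what made a mouse count as Susceptible. The level is the percentage of calls at CpG cytosines that stayed cytosine after bisulfite, and hydroxymethylated cytosines are counted with methylated ones.

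Deposited calls summed to between 313475624 and 570984634 a library, and every Susceptible library (at least 432409939) had more than every Control library (at most 430312082). Depth therefore moved with the groups, and its part in the differences was not tested. Control 5 and Control 8 listed the fewest cytosines, 13446563 and 16088027, against 18941987 to 22631489 in the other libraries. The part of this narrower coverage in their levels was not tested either. A punch holds neurons and glia, and a change in cell mixture cannot be told apart from a change within cells. The 5′ gene ends of the striatal neuron genes Rgs9, Drd1, Drd2 and Pdyn had means of 9.50 to 15.7% over the 9 libraries. Those of Mog (oligodendrocytes), Gfap (astrocytes), Cx3cr1 and Aif1 (microglia) and of the liver genes Alb and Apoa1 had means of 76.8 to 86.4%. At these loci Control 5 lay farthest from the other libraries in level and the strands of Control 8 disagreed most, so differences are also given without these 2 libraries.

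In 7 of the 8 loci the main region lay inside the gene and away from both annotated bounds, and at Nnat it spanned the gene start. Coordinates are those of mm10, the GRCm38 assembly, and gene bounds are from RefSeq GRCm38.p6. Grb10 encodes an adaptor protein that restrains insulin and growth factor signalling (gene 14783, minus strand). Its main region, chr11:12025001-12027000, held 163 CpGs inside the gene, 11.4 kb from the 5′ bound. Igf2r encodes the receptor that clears the growth factor IGF2 (gene 16004, minus strand). Its main region, chr17:12741001-12743000, held 102 CpGs, 27.7 kb inside from the 5′ bound. There it overlapped the start of Airn, the antisense noncoding RNA known to silence Igf2r on the paternal copy outside neurons. Inpp5f encodes an inositol phosphatase (gene 101490, plus strand), and an imprinted shorter transcript is known to start within it. The main region, chr7:128687001-128689000, held 86 CpGs, 76.8 kb downstream of the 5′ bound and 8.44 kb before the 3′ bound.

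Snrpn encodes a splicing protein, and its upstream region is the imprinting centre of the domain that is affected in Prader-Willi syndrome in humans (gene 20646, minus strand). In the table the gene spans 468 kb, and the main region, chr7:60004001-60006000, lay 445 kb from the annotated 5′ bound. It held 51 CpGs and overlapped Snurf and Snhg14. Gnas encodes the stimulatory G protein subunit and several other products from alternative first exons (gene 14683, plus strand). Its main region, chr2:174294001-174301000, held 349 CpGs over 7 tiles and overlapped the antisense gene Gnasas1. Impact encodes a regulator of the GCN2 kinase that is abundant in neurons (gene 16210, strand not in the tables used). Its main region, chr18:12972001-12975000, held 147 CpGs, 18.8 kb from the bound of lower coordinate and 19.4 kb from the other. Nnat encodes neuronatin, a small membrane protein of the brain, and sits within an intron of Blcap (gene 18111, plus strand). Its main region, chr2:157558001-157562000, held 144 CpGs and covered the gene start. Mest encodes a hydrolase-like protein of mesoderm and brain (gene 17294, plus strand). Its main region, chr6:30736001-30740000, held 148 CpGs, with its centre 4.49 kb downstream of the annotated 5′ bound.

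**Figure D1:**
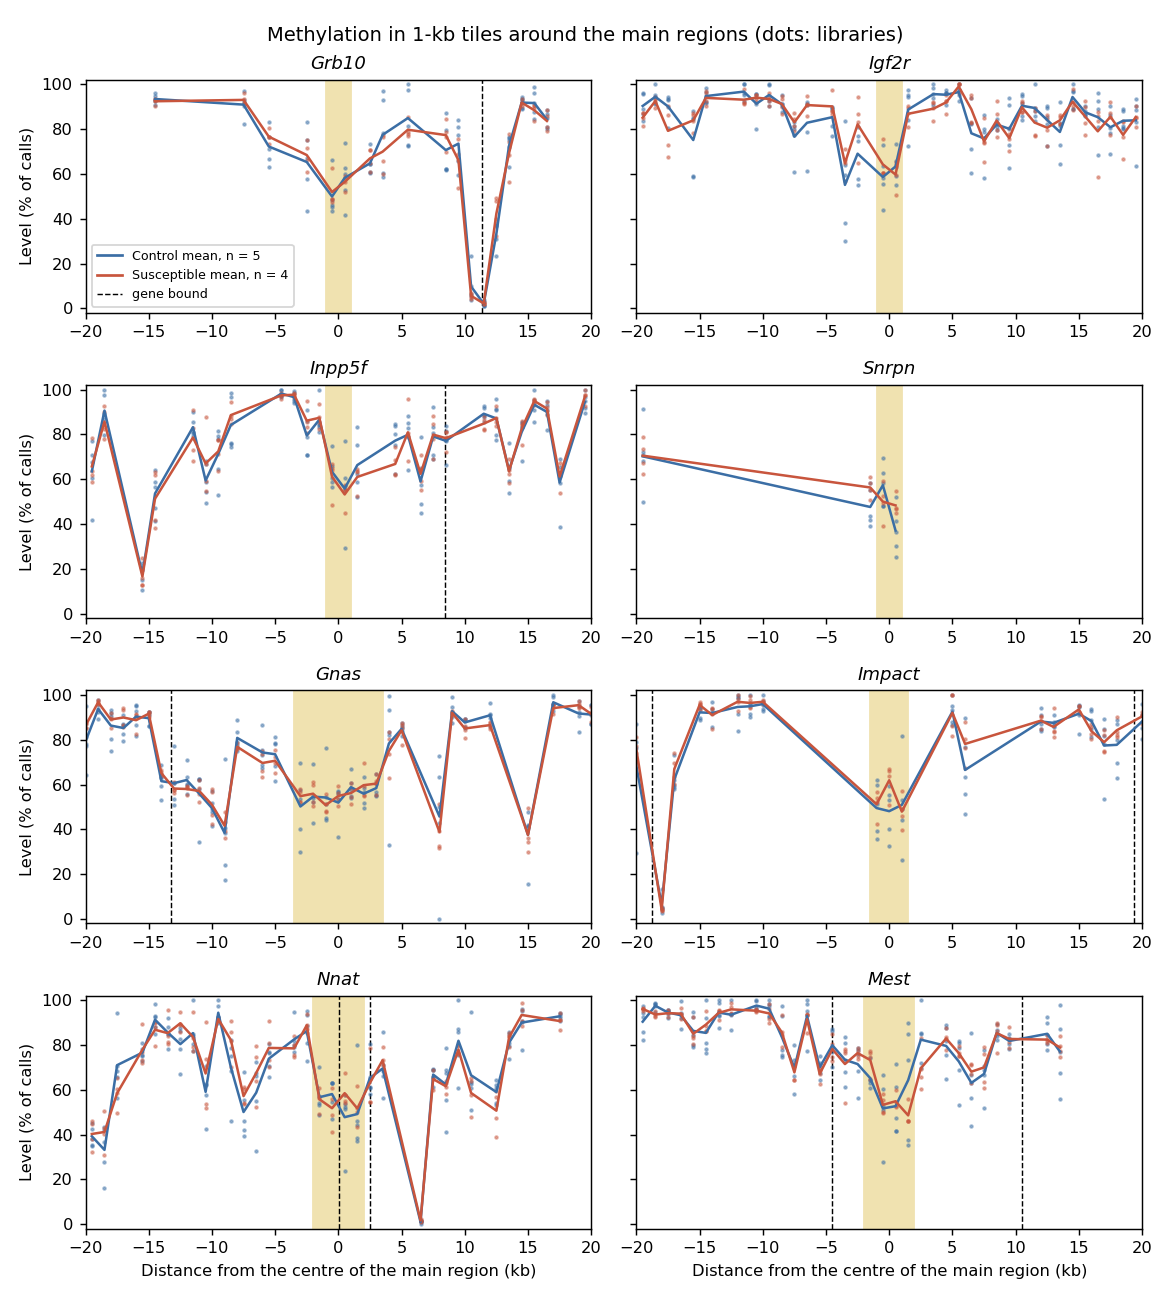
Methylation level (% of calls, y axis) of tested 1-kb tiles against the distance from the centre of each main region (kb, x axis), with 1 panel per locus. Dots are libraries, lines are the means of the 5 Control (blue) and 4 Susceptible (red) libraries, shading marks the main region and dashed lines mark gene bounds within the window. Both group means lie in the middle of the scale in the shaded stretch, with higher levels on both sides at most loci but not after the Nnat region, and with little difference before the Snrpn region.

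The rule bounds each region by tiles outside the range or with few CpGs, so flanks that differ from the region follow in part from that choice and are given as a description. At 7 of the 8 loci the Control mean was higher on both sides than in the region itself. In the 5 kb before and after, the Control mean was 90.4% and 64.0% at Inpp5f, 91.3% and 74.3% at Impact, 77.0% and 92.2% at Igf2r, and 78.0% and 81.1% at Gnas. At Snrpn the 5 kb before the region read 49.5%, close to the region itself. At Nnat the 5 kb after it read 18.2%, where the profile reaches a tile close to 0. A mean in the middle of the scale can come from CpGs that all lie there or from a mix of low and high ones, and the single CpGs separate these. The share of CpGs with a mean over libraries of 30 to 70% was 97.3% at Impact, 92.6% at Gnas, 92.2% at Snrpn, 91.7% at Nnat, 91.2% at Mest, 83.7% at Inpp5f, 76.1% at Grb10 and 75.5% at Igf2r. At Impact 143 of 147 CpGs were in that range and 0 were under 20%. At Grb10 2 CpGs were under 20% and 4 over 80%. At Igf2r 10 of 102 CpGs were over 80% and 0 under 20%, so this region mixes middle and high CpGs.

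The other 21 regions were mostly of another kind. Of these, 16 were a single tile, and the share of CpGs in the middle range had a median of 46.7% and ran from 10.5 to 89.0%. The tile just upstream of the Igf2r 5′ bound, chr17:12770001-12771000, had a Control mean of 40.4% with only 12.5% of its 16 CpGs in the middle range, so it joins low and high CpGs. The 3 other regions with shares at or above the lowest main region (75.5%) all belonged to Gnas. One, chr2:174283001-174288000 with 227 CpGs and a share of 89.0%, covers the Nesp first exon at the gene's annotated start. Another, chr2:174326001-174329000 with 170 CpGs and a share of 84.7%, covers the start known as exon 1A. The tile at the start of the main Gnas transcript, chr2:174330001-174331000 (112 CpGs), read 1.29% in Control and 1.77% in Susceptible libraries, so a nearly unmethylated promoter lies next to it. As background, the Nesp region is methylated on the paternal copy, and the Gnasas1 and exon 1A regions on the maternal copy. Closest to the limits of the rule, a Mest tile with a Control mean of 70% was inside and 1 of 71.5% was outside, and a Nnat tile of 33.2% was inside and a Gnas tile of 25.5% was outside.

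Promoters inside and outside these regions are shown as sequence, because they set half-methylated starts beside unmethylated ones. They are the 250 bases before and 50 after an annotated start, from RefSeq on GRCm38.p6, written 5′ to 3′ on the strand of the gene. Capitals mark the CpGs listed in at least 1 library. The first 4 lie in half-methylated regions, Mest at chr6:30737800-30738099 (plus), Nnat at chr2:157559828-157560127 (plus), Snrpn at chr7:60005150-60005449 (minus) and Gnas exon 1A at chr2:174327499-174327798 (plus). The last 2 are the upstream promoters of Igf2r at chr17:12769657-12769956 (minus) and Grb10 at chr11:12037371-12037670 (minus).
Mest promoter, second start: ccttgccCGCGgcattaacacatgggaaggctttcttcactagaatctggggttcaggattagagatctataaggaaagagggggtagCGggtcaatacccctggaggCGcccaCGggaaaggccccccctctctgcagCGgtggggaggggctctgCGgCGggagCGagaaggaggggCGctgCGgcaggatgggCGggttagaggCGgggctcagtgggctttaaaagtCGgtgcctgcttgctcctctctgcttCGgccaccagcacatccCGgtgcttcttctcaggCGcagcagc
Nnat promoter: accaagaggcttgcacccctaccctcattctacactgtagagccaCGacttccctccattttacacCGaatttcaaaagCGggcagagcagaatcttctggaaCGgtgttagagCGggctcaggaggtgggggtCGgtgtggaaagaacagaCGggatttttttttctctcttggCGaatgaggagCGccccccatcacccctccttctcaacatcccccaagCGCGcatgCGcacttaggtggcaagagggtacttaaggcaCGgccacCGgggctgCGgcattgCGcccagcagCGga
Snrpn promoter, most downstream start: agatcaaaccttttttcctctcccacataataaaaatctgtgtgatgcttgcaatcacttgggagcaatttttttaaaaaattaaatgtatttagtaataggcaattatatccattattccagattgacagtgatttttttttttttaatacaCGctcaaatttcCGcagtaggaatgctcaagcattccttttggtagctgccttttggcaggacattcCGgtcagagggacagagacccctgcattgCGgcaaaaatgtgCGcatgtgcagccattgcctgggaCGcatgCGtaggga
Gnas promoter, exon 1A start: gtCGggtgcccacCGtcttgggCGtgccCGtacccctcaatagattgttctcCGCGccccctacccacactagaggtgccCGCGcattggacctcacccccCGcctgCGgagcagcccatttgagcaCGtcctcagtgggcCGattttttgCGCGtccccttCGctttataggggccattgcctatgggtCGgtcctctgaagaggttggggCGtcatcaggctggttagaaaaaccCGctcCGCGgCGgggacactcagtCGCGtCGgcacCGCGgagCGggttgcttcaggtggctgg
Igf2r promoter: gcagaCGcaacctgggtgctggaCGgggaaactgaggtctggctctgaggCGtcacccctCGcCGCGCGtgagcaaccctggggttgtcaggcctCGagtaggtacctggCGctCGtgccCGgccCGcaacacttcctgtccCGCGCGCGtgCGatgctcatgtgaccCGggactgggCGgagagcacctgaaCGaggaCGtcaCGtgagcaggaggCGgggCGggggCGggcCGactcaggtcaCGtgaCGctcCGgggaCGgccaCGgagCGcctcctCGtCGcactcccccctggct
Grb10 promoter, upstream start: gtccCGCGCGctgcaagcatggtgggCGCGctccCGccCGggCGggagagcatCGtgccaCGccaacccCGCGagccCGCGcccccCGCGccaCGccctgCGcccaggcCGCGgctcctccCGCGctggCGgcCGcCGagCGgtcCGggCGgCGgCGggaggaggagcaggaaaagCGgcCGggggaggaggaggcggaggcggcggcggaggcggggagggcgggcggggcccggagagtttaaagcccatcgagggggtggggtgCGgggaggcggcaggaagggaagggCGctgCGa
All 17 listed CpGs of the Mest promoter and all 17 of the Nnat promoter had means over libraries of 37.1% or more and at most 69.6%. The 27 CpGs of the exon 1A promoter ran from 37.7 to 74.6% and the 7 of the Snrpn promoter from 21.6 to 45.8%. The 34 CpGs of the Igf2r promoter ran from 2.80 to 10.1%, and the 35 listed CpGs of the Grb10 promoter ran from 0 to 25.3% with a median of 0.469%.

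The hexamer TGCCGC is the core of the site bound by ZFP57, a zinc finger protein known to protect imprints. It was searched on both strands, and no other motif was. It occurred 2 times in the Mest sequence, 1 time each in the Nnat, Snrpn and Grb10 sequences and not in the Gnas or Igf2r sequence. Of all 32851 promoters of this length in the table, 11.6% hold it at least 1 time and 1.53% at least 2 times. A match is a description of these windows, and the regions themselves extend well beyond them.

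Methylation of these promoters by library was as follows. The Mest promoter read 57.6, 58.3, 51.7, 43.4 and 36.1% in the Control libraries 2, 3, 4, 5 and 8 (in that order throughout), and 53.0, 56.9, 57.6 and 71.5% in the Susceptible libraries 2, 3, 6 and 7. The Nnat promoter read 52.4, 55.0, 46.8, 67.9 and 35.1% in the Control libraries and 56.3, 51.8, 57.0 and 67.1% in the Susceptible libraries. At both, Control 8 was lowest and the groups overlapped. The Snrpn promoter read 30.4, 16.3, 39.5, 22.8 and 41.3% against 47.5, 35.2, 56.4 and 44.3%. The exon 1A promoter read 55.9, 60.1, 68.7, 61.9 and 69.1% against 54.2, 52.5, 46.1 and 59.0%. Susceptible libraries were toward the upper side at Snrpn and the lower side at exon 1A, with overlap at both. These windows rest on as few as 46 calls in a library at Snrpn and 239 at exon 1A. The Igf2r promoter read 1.90 to 6.97% in Control and 5.52 to 11.3% in Susceptible libraries, and the Grb10 promoter 0 to 2.52% and 0.481 to 1.60%.

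The promoter windows were chosen for description after their levels had been seen. Those of Igf2r, Grb10 and Nnat lie within the gene ends whose levels helped to choose the loci, so their values are a description with no test. The others were tested with the two-sided exact permutation test over libraries. The exon 1A means were 63.2% ± 5.70 (SD, n = 5) and 52.9% ± 5.33 (SD, n = 4), and the difference was -10.2 points (exact permutation p = 0.0317). At the Snrpn promoter the difference was 15.8 points (exact permutation p = 0.0556), and at Mest the p was 0.167 by the same exact permutation test. Of 6 windows of these genes away from the gene ends, with at least 3 CpGs and 20 calls in each library, 2 had an unadjusted p under 0.05, and these are overlapping windows at exon 1A. The share over all 20518 such promoter windows was 6.94%. The exon 1A difference did not pass after Benjamini-Hochberg adjustment over those windows (adjusted p = 0.653, exact permutation test). Leaving out 1 library at a time kept it between -12.2 and -7.95 points, and the exact permutation p was above 0.05 except without Control 2 or Susceptible 7. Without Control 5 and Control 8 it was -8.66 points (exact permutation p = 0.114). At Snrpn the p fell under 0.05 without Susceptible 3 (0.0357, exact permutation test).

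Over the whole main regions no locus separated the groups. The exact permutation test was two-sided over all 126 ways to divide 9 libraries into 5 and 4, and the smallest p it can give is 0.00794. The p-values are unadjusted because the loci were chosen with earlier results known. Nothing in the labels says that each sample is a separate animal or a pool, so these p-values measure the spread between the samples, which may in part be technical. Among the 54 half-methylated tiles of these loci, 0 had groups that did not overlap, beside 1.68% of the 33746 such tiles of the genome.

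Among the growth regulators, Grb10 read 50.1, 56.4, 48.6, 61.4 and 55.7% in the Control libraries and 54.1, 54.5, 50.8 and 58.3% in the Susceptible libraries. The Susceptible libraries all lay within the Control range. The means were 54.4% ± 5.18 (SD, n = 5) and 54.4% ± 3.09 (SD, n = 4). Their difference was -0.0121 points (exact permutation p = 1.0), and its sign turned under several alternatives. Igf2r read 62.0, 58.6, 73.1, 52.5 and 59.5% in the Control libraries and 62.3, 55.2, 63.2 and 66.6% in the Susceptible libraries. Control 4 was the highest and Control 5 the lowest. The means were 61.1% ± 7.56 and 61.8% ± 4.77, a difference of 0.671 points (exact permutation p = 0.897). Without Control 5 and Control 8 the difference was 2.73 points at Grb10 and -2.78 points at Igf2r.

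Mest, which is paternally expressed, read 49.1, 61.7, 46.4, 71.2 and 41.3% in the Control libraries. The Susceptible libraries read 54.0, 59.7, 53.8 and 56.3%, a range of 5.99 points against 30 points in Control. Control 5 was the highest of all 9 libraries and Control 8 the lowest. The means were 53.9% ± 12.3 (SD, n = 5) and 56.0% ± 2.78 (SD, n = 4). Their difference was 2.04 points (exact permutation p = 0.754). The 95% Wilson interval of the highest library ran from 69.5 to 72.9% and that of the lowest from 40 to 42.6%. Such intervals cover counting error only and treat each call as independent. The strands of 1 library differed by more than their width, with 60.1% forward and 79.8% reverse in Control 5 and 58.7 and 19% in Control 8. Leaving out 1 library at a time moved the difference between -1.12 and 6.37 points. The negative value came without Control 8.

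Inpp5f read 60.9, 62.1, 57.0, 70 and 34.1% in the Control libraries and 55.1, 57.4, 58.3 and 50.8% in the Susceptible libraries. Control 8 was the lowest and Control 5 the highest. The means were 56.8% ± 13.6 and 55.4% ± 3.36, a difference of -1.47 points (exact permutation p = 0.849). The Control SD was 2.66 over Control 2, 3 and 4 alone, which leaves out the lowest and the highest library. Leaving out 1 library at a time gave differences of -7.16 points, without Control 8, to 1.82 points.

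Nnat and Impact read higher on average in Susceptible libraries, within the spread, as did 6 of the 8 loci in all. Impact read 52.5, 51.0, 54.7, 31.8 and 49.8% in the Control libraries and 59.0, 61.3, 55.5 and 49.0% in the Susceptible libraries. Control 5 lay far under all others, and 3 of the 4 Susceptible libraries lay above every Control library. The means were 47.9% ± 9.24 (SD, n = 5) and 56.2% ± 5.35 (SD, n = 4), and this difference of 8.24 points was the largest of the 8 loci (exact permutation p = 0.151). It was 4.19 points when Control 5 alone was left out. Nnat read 54.9, 53.4, 49.5, 49.8 and 49.0% in the Control libraries and 53.8, 52.3, 51.5 and 64.1% in the Susceptible libraries. Susceptible 7 lay above every other library, and the other 8 spread over a narrow range. The means were 51.3% ± 2.64 and 55.4% ± 5.87, a difference of 4.13 points, and without Susceptible 7 it was 1.24 points. This region contains the gene start whose level helped to choose the locus, so its values are a description with no test.

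Snrpn read 45.8, 41.8, 53.4, 41.4 and 58.2% in the Control libraries and 51.1, 54.6, 49.1 and 42.5% in the Susceptible libraries. Here Control 8 was the highest, and all 4 Susceptible libraries lay within the Control range. The means were 48.1% ± 7.41 and 49.3% ± 5.07, a difference of 1.19 points (exact permutation p = 0.770). Only 12 of its 51 CpGs were listed in all 9 libraries, and calls ran from 744 to 1618 a library, the fewest of the main regions. With 1 library left out the group difference ran from -0.578 points, without Susceptible 3, to 3.71 points, without Control 8.

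Gnas had the narrowest spread of the 8. It read 54.2, 55.5, 59.1, 55.1 and 54.5% in the Control libraries and 55.6, 58.4, 54.8 and 59.9% in the Susceptible libraries. All 9 lay within 5.75 points, on 7404 to 16409 calls a library. The means were 55.7% ± 1.98 (SD, n = 5) and 57.2% ± 2.41 (SD, n = 4). Their difference was 1.49 points (exact permutation p = 0.286), and it ran from 0.565 points without Susceptible 7 to 2.34 points without Control 4. At the Nesp region the means were 58.9% ± 2.63 and 57.7% ± 1.0, a difference of -1.23 points, with no test because it contains a gene end. At the exon 1A region they were 56.3% ± 5.29 and 51.5% ± 3.24, a difference of -4.83 points (exact permutation p = 0.151). Over the 21 regions beside the main ones, differences ran from -5.88 to 12.1 points, and 0 regions had groups that did not overlap. As only 1.68% of the genome's half-methylated tiles had such groups, this count says nothing particular of these regions. For the 15 of them away from the gene ends the exact permutation p ran from 0.151 to 0.937.

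**Figure D2:**
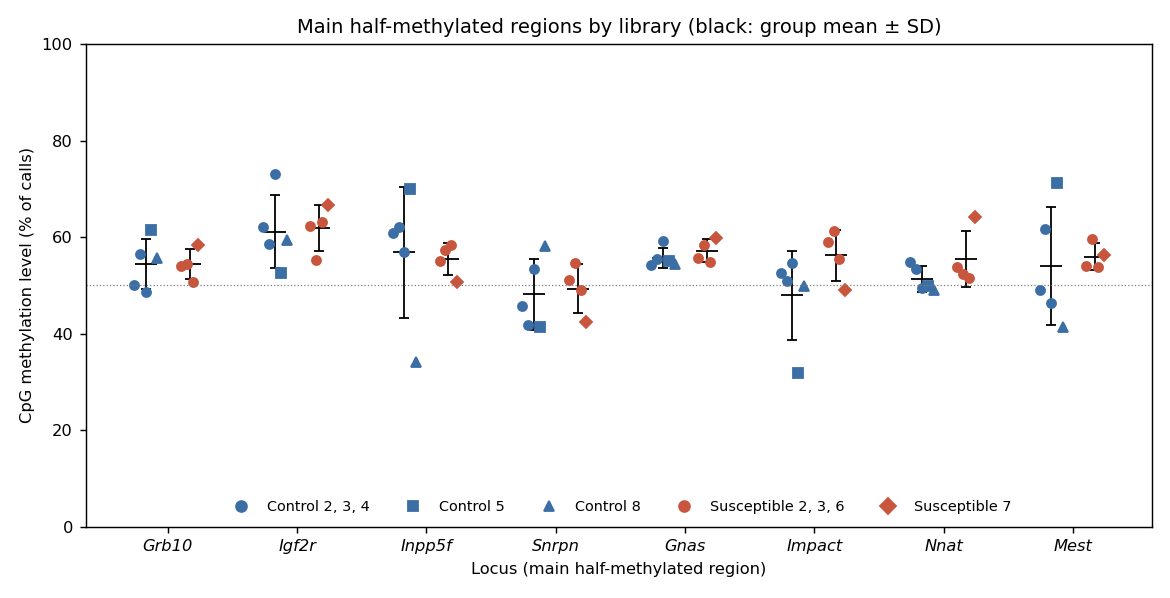
Methylation level (% of calls, y axis) of the main region of each locus (x axis) in each library. Blue points are Control libraries (Control 5 square, Control 8 triangle), red points are Susceptible libraries (Susceptible 7 diamond), black marks are group mean ± SD, and the dotted line is 50%. Groups overlap at all 8 loci, Gnas has the narrowest spread, and Control 5 or Control 8 stand apart at Inpp5f, Impact and Mest.

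Gene ends, 1000 bp on each side of an annotated bound, showed what the bounds themselves hold. At the 5′ ends of 3 genes the level was low. The Control means were 3.40% at Grb10, 7.65% at Igf2r and 9.05% at Inpp5f, and the Susceptible means 3.11, 8.96 and 6.97%. Their 3′ ends read 88.8, 92.5 and 71.9% in Control libraries. The main region of these 3 genes lay between the ends, whose levels were among the values that chose the loci. At Gnas the 5′ end belongs to the Nesp region with group means of 61.3% (Control) and 59.5% (Susceptible), and the 3′ end had means of 96.8 and 96.0%. The Mest ends read 73.6% and 68.8% in Control libraries, above the main region between them.

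At Impact, Nnat and Snrpn the ends were unsteady. The Impact bound of lower coordinate read 67.2, 49.7, 49.8, 72.2 and 15% in the Control libraries and 52.2, 47.0, 42.5 and 40.1% in the Susceptible libraries. Control 8 was the lowest and Control 5 the highest, and in the profile the next tile inward from this bound is close to 0. The Nnat 5′ end read 31.9% in Control 8, against 53.9 to 58.7% in the other Control libraries, and 65.5% in Susceptible 7. The Nnat 3′ end read 85.7% in Control 8, against 40.6 to 50.9% in the other Control libraries. At Snrpn each end had 6 CpGs, with 12 to 88 calls a library at the 5′ end and 13 to 161 at the 3′ end. Control 8 read 0% at the 5′ end, where the other 8 libraries read 35.8 to 65.4%. Groups overlapped at all 16 ends, a description only, because levels there helped to choose the loci and no such count was made over all genes.

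**Figure D3:**
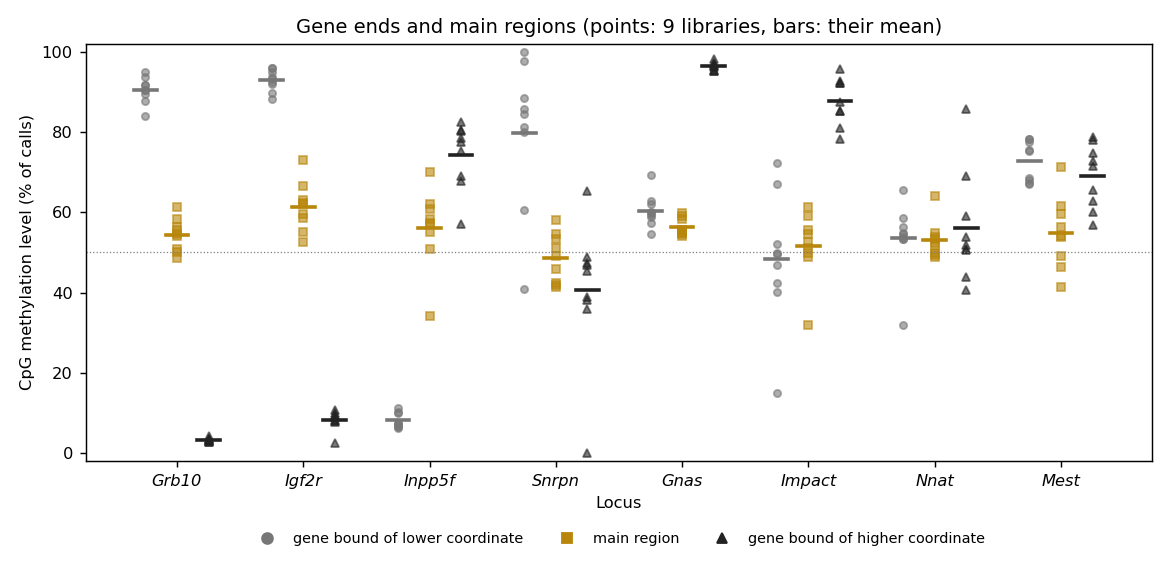
Methylation level (% of calls, y axis) at both gene bounds and in the main region of each locus (x axis). Points are the 9 libraries, bars their mean, grey circles the bound of lower coordinate, gold squares the main region, black triangles the bound of higher coordinate, and the dotted line is 50%. At Grb10, Igf2r and Inpp5f the ends lie near 0 or well above the middle, while the main region lies between.

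Libraries differed in how often they lay at the edge of the range. Control 5 was the lowest or highest of the 9 at 6 of the 8 main regions, 3 times each way, and Control 8 at 4, lowest 3 times and highest 1 time. Susceptible 7 was the highest at 2. Over the genome's half-methylated tiles Control 5 was the lowest or highest at 44.2%, Control 8 at 37.5% and Susceptible 7 at 35.3%, and each other library at 7.43 to 19.7%. The median distance from the 9-library median was 8.60 points in Control 5, 3.01 in Control 8, and 0.877 (Susceptible 6) to 4.48 points (Susceptible 7) in the other 7. Over the genome's half-methylated tiles the 3 most distant libraries had medians of 8.65 points in Control 5, 7.59 in Control 8 and 7.47 in Susceptible 7. Control 5 had the fewest calls of all libraries. The Control SD was larger than the Susceptible SD at 6 of the 8 loci, and at 8 of the 14 other imprinted loci described below. Over the genome's half-methylated tiles the median SD was 9.07 points in Control and 6.83 in Susceptible libraries. A larger Control SD is thus not particular to these loci. Without Control 5 and Control 8 the Control SD was larger at 5 of the 8. These were Grb10 (4.12 against 3.09), Igf2r (7.59 against 4.77), Snrpn (5.86 against 5.07), Gnas (2.54 against 2.41) and Mest (8.17 against 2.78). Without these libraries it was smaller at Inpp5f (2.66 against 3.36), Impact (1.88 against 5.35) and Nnat (2.76 against 5.87). At Gnas the order had turned, as with all libraries the Control SD was the smaller (1.98 against 2.41). Control 5 and Control 8 were left out because they stood apart at these same loci, while Susceptible 7 was kept. The SDs without them are therefore a description, and nothing is read from their order.

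The cytosines of a CpG lie on both strands and are read from different molecules, so the strands give 2 readings of a region. Each strand was summed over its own listed cytosines, so the 2 readings can cover different CpGs and unequal numbers of calls. In Control 8 the strands disagreed at these loci. Its median gap between strands was 34.5 points, against 11.8 in Control 5 and 2.21 to 8.48 in the other 7 libraries. Control 8 had the largest gap of the 9 libraries at 7 of the 8 main regions, with the forward strand higher at 7. At Mest its forward cytosines read 58.7% and its reverse cytosines 19%. At Impact they read 60.2 and 25.2%, at Nnat 64.5 and 26.2%, and at Snrpn 88.3 and 54.4%. At Igf2r the order was turned, 56.4 and 94.4%. Over both strands Control 8 read 59.5% at Igf2r, close to its forward level, and 58.2% at Snrpn, close to its reverse level. Most of its calls there thus came from 1 strand, and these 2 gaps rest on the smaller share of calls from the other. At Nnat the level of Control 8 over both strands, 49.0%, was close to that of the others, while its reverse strand was far under theirs (45.5 to 56.8%). At Gnas, whose main region had the most calls, its gap was 6.18 points. The forward and reverse means over libraries were 56.8 and 56.0% at Gnas and 60.1 and 68.7% at Igf2r. Over the genome's half-methylated tiles the median gap was 19.7 points in Control 8, 21.0 in Control 5 and 9.67 to 13.2 in the others. Without Control 5 and Control 8 the group difference was -4.66 points at Inpp5f, 2.31 at Snrpn, 0.897 at Gnas, 3.47 at Impact, 2.85 at Nnat and 3.59 at Mest. Over the 7 loci other than Nnat the exact permutation p of 3 against 4 libraries then ran from 0.143 (Inpp5f) to 0.657, where the smallest possible is 0.0286.

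**Figure D4:**
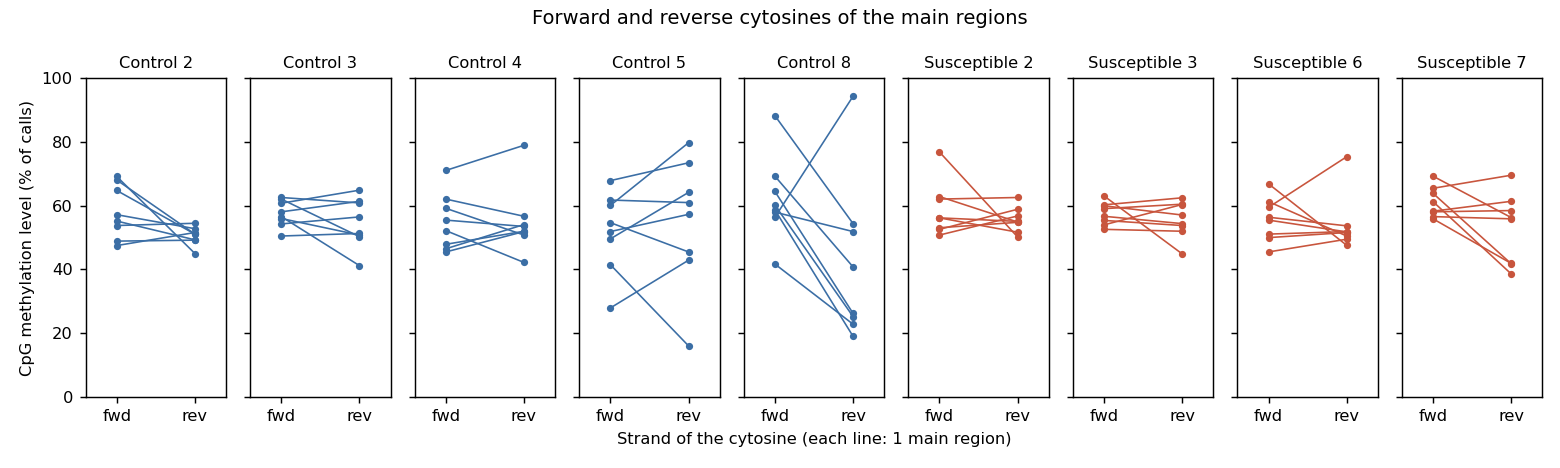
Methylation level (% of calls, y axis) of forward and reverse cytosines (x axis) of the 8 main regions in each library, 1 panel per library and 1 line per region. Blue is Control and red is Susceptible. In Control 8 the lines are steepest, with 7 of 8 falling from forward to reverse, and in Susceptible 3 they are nearest to level (median gaps of 34.5 and 2.21 points).

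Tile by tile, the loci held 1110 tiles with a CpG. Of these, 476 met the minimum of 3 CpGs and 20 calls per library and were tested with the quasi-binomial model. Snrpn was thinly covered, with 30 of 450 tiles tested. None of the 476 was called at a Benjamini-Hochberg adjusted p under 0.05, beside 0% (0 of 1041809) over the genome, where the smallest adjusted p was 0.103. With no adjustment 22 of the 476 (4.62%) had a p under 0.05, close to the 4.38% of all tiles, so this count says nothing particular of these loci. The 476 include tiles at gene ends, whose levels helped to choose the loci. By limma on logit methylation 0 tiles were called as well.

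The tile of smallest p at each locus is given as a description. It was picked from all tested tiles of the locus, from 30 at Snrpn to 108 at Igf2r. That choice favours large differences, so their sizes are overstated. Each of these tiles had an adjusted p of 0.997 by the quasi-binomial model, and none passed the test. At Snrpn, chr7:60155001-60156000 (38 CpGs, within Snhg14) read 87.7% in Control and 74.1% in Susceptible libraries, far from its main region. At Grb10, chr11:12048001-12049000 (5 CpGs, beyond the 5′ bound) read 66.7 and 90.0%. At Igf2r, chr17:12779001-12780000 (10 CpGs, within Airn) read 70.6 and 83.3%, and at Inpp5f, chr7:128591001-128592000 (11 CpGs, before the gene) 51.1 and 67.1%. Those 4 lay outside the main regions.

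In the other loci the tile of smallest p lay in a half-methylated region. At Impact it was chr18:12973001-12974000 (72 CpGs), the middle tile of the main region. It read 55.1, 53.2, 59.3, 32.4 and 40.3% in the Control libraries and 66.9, 66.0, 63.6 and 50.9% in the Susceptible libraries. Control 5 and Control 8 were the lowest there, and the groups overlapped (means 48.1 and 61.9%). At Nnat it was the tile at the gene start, chr2:157560001-157561000 (57 CpGs), with 47.8 and 58.5%. The level at that gene start helped to choose the locus, so this tile is a description and nothing is read from its test. At Mest it was the first tile of the main region, chr6:30736001-30737000 (22 CpGs), with 65.2 and 73.3%. At Gnas it was chr2:174327001-174328000 (79 CpGs) at exon 1A, with 56.2 and 50.9%.

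Beside 14 other imprinted loci read by the same rule (Peg3, Plagl1, Kcnq1ot1, Peg10, Zrsr1, Nap1l5, Mcts2, Peg13, Slc38a4, Zdbf2, H19, Meg3, Dlk1 and Rasgrf1), the 8 are given side by side, with no test between the sets. The median of the Control means was 54.1% (47.9 to 61.1%) over the 8. It was 56.7% over the 14, from 51.0% at Plagl1 to 67.7% at Rasgrf1. The Rasgrf1 region was 1 tile of 16 CpGs, with as few as 67 calls in a library. The share of CpGs in the middle range had a median of 91.5% over the 8 and 86.7% (18.4 to 96.7%) over the 14. The lowest share was at Dlk1, where 17 of 49 CpGs were under 20% and 12 over 80%. The median group difference was 1.34 points (-1.47 to 8.24) over the 8 and -0.831 points (-4.80 to 6.04) over the 14. Susceptible means were higher at 6 of 8 and 4 of 14. Nnat aside, no main region of either set had an exact permutation p under 0.05. The dispersion is the variance between libraries of a group over that of counting alone. Its median was 50.1 (18.6 at Snrpn to 142 at Mest) over the 8 and 27.8 (4.92 at Rasgrf1 to 69.8) over the 14. Over the half-methylated tiles of the genome the median was 15.2. The dispersion grows with the calls in a region, so tiles and regions are not on a like footing. Control 5 or Control 8 was the lowest or highest library at 7 of 8 and 13 of 14 loci. The median strand gap of Control 8 was 34.5 points over the 8 and 16.7 over the 14, and that of Control 5 was 11.8 and 16.6. The 8 were picked in part because gene-end levels varied between libraries. Their dispersion and strand gaps beside those of the 14 are therefore a description and support nothing.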

How the data were processed

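CpG methylation was read by whole-genome bisulfite sequencing (Pico Methyl-seq kit, per the labels' protocols) in 9 libraries. The submitters' processing notes name Bismark, Bowtie, Picard and mm10, without versions or roles. Per the file headers, each file lists a cytosine, its strand, the count of calls and the percent read as C and as T. These deposited counts are whole numbers with a minimum of 10 a cytosine, so the totals are not the full depth. Methylated calls were count times percent of C, and a level is their share of all calls. The first of repeated entries was kept (4 in Control 5, 8 in Control 8).

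Gene names and bounds came from RefSeq GRCm38.p6, and strand from its promoter table. Tiles of 1000 bp (a minimum of 3 CpGs and 20 calls per library) were tested with a quasi-binomial model, with dispersion moderated as in limma's squeezeVar, with Benjamini-Hochberg adjustment over 1041809 tiles. The model was first tried on data simulated with 1 dispersion for all tiles, the median of sampled tiles. The median dispersion was 6.33 over all tiles and 15.2 over half-methylated tiles, so that trial does not cover the spread of the latter. Regions joined adjacent half-methylated tiles and, where they lay away from the gene ends, had an exact permutation test. For every locus the main region, both ends and the tile of smallest p are named. Members and lists were chosen with earlier results of these data known. Promoter windows, added after seeing the data, had the same test under the same condition, with adjustment over 20518 windows. Python 3.11.15, numpy 2.4.6, pandas 2.3.3, scipy 1.17.1, R 4.3.3 and limma 3.58.1 were used. Alternatives changed CpG weights, call and CpG minimums, the level range, tile position, window size, the test and the libraries.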

Additional observations from a re-analysis of the deposited data

Results flagged for a closer look

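In 7 of the 48 groups checked (main regions and gene ends by group), 1 library lay farther from its group than Dixon's 95% critical value allows. Chance flags about 1 in 20 groups, but 5 of the 7 are gene ends, whose levels and spread helped to choose the loci, so the count is not read against that rate.

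At the main regions, Control 4 read 59.1% at Gnas, where the other Control libraries read 54.2 to 55.5%, and Control 5 read 31.8% at Impact, against 49.8 to 54.7%. At the gene ends Control 8 stood apart 3 times. It read 31.9% at the Nnat start (others 53.9 to 58.7%), 85.7% at the Nnat end (others 40.6 to 50.9%) and 0% at the Snrpn end of higher coordinate (others 38.9 to 48.9%). Susceptible 7 read 65.5% at the Nnat start (others 53.3 to 54.8%). Susceptible 2 read 85.3% at the Impact end of higher coordinate (others 92.2 to 92.7%).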

How the results depend on the processing

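Nnat aside, no main region passed the threshold in any alternative with a test (lowest exact permutation p 0.0714, at Impact without Susceptible 7). The Nnat region contains a gene end that helped to choose the locus, so its alternatives are a description. Of 160 alternatives in all, with those of Nnat included, 134 kept the direction. The other 26, at 7 loci, reversed it. The Grb10 difference (points, Susceptible minus Control) was 2.13 with CpGs weighted equally, 0.505 with at least 20 calls a cytosine and 2.73 without Control 5 and Control 8 together, an alternative added after seeing the data. Igf2r was -2.02 with tiles shifted by 500 bp and -2.78 without those 2 libraries, and Snrpn -0.322 with equal weights. Without Control 5, Control 8 and Susceptible 7 together, also added after seeing the data, Grb10 was 1.43, Igf2r -4.35, Gnas -0.0273 and Nnat -0.0453, and Impact 5.86 with an exact permutation p of 0.1, the smallest that 3 against 3 can give. Joining tiles across 1 tile between them, a further addition, left all 8 differences as they were. The replicate block on the shared numbers 2 and 3 gave 1.04 at Grb10, -1.58 at Igf2r and -1.05 at Nnat, and 9.0 at Snrpn and -5.32 at Inpp5f. Leaving out 1 library at a time gave -1.47 to 1.74 at Grb10, -1.49 to 3.67 at Igf2r, -7.16 to 1.82 at Inpp5f, -0.578 to 3.71 at Snrpn and -1.12 to 6.37 at Mest. The cause of these reversals was not tested.

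Gene-end levels helped to choose the loci, so nothing is read from tests there. Of 190 alternatives at gene ends, 16 reversed. With CpGs listed in all 9 libraries, differences were 0.122 at the Grb10 end, 1.03 at the Inpp5f start, 4.27 at the Impact start, -6.05 at the Mest end and 7.56 at the Grb10 start. Equal weights gave 0.293 at the Inpp5f start and 1.09 at the Mest start, and a window of 2000 bp 0.256 at the Mest start. Leaving out 1 library gave -0.0184 to 2.25 at the Igf2r start, -6.5e-05 to 2.03 at the Igf2r end, -3.53 to 0.209 at the Gnas start, -14.3 to 0.0221 at the Impact start, -3.34 to 0.0519 at the Mest start, -2.59 to 3.59 at the Mest end and 0.605 to 12 at the Nnat end.

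Tiles called genome-wide were 0 to 1 when 1 library was left out (1 without Control 4, adjusted p 0.0370 by the quasi-binomial model), 0 with at least 5 CpGs and 50 calls, 0 by limma and 427 under the replicate block (0.0410% of all tiles), 2 of them among the 476 of these loci (0.420%). That block rests on 2 pairs with 1 residual degree of freedom. Deviations of same-numbered libraries correlated at 0.0258 (number 2) and -0.0171 (number 3), within the -0.0954 to 0.132 of other pairs. With only 2 pairs this cannot tell whether an equal number marks a pairing or a batch. Snrpn and the gene ends with few calls limit what could be seen, and only counting error is covered by the intervals.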
